A study of Danio rerio with 6 samples.

Results

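Keratin genes of zebrafish were followed in dissected renal collecting ducts and in whole kidney. A probe set was taken as a keratin where the platform's probe table gave it a single gene symbol, and where that symbol, older or current, was krt4, krt5, krt8, any other krt name followed by a digit, cyt1 or cyt1l. This rule, which used names and no measured value, found 18 of 15502 tested probe sets, covering 15 of 8793 named genes. The genes krt4, krt5 and krt8 had 1 probe set each, and 12 further keratin genes had 15 between them. A current zebrafish gene table lists 23 genes under this rule, and the other 8 had no probe set of their own among those used here.

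Keratins are the intermediate filament proteins of epithelial cells. A basic type II keratin pairs with an acidic type I keratin, and the pairs assemble into filaments that tie into desmosomes, so that an epithelial sheet resists stretching. In simple epithelia such as renal tubule and gut the usual pair is keratin 8 with keratin 18, while epidermis and other layered epithelia add further keratins. In zebrafish, krt4 is best known from the outer layer of the larval epidermis, where its promoter is widely used to drive transgenes, and krt5 and krt8 from the enveloping layer of the embryo.

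The study compared 3 groups of 2 arrays, each hybridised with RNA pooled from 5 fish and described as independent. Irradiated ducts came from fish given 25 Gy of X-rays, unirradiated ducts were collected in the same way without that treatment, and whole kidney was the comparison tissue. No dose is given for the whole kidney fish. Irradiated ducts thus differ from whole kidney in tissue and, as described, in irradiation, and these cannot be told apart in that comparison. All fish were adults with the transgene Tg(jam1a:EGFP), in which the jam1a promoter drives green fluorescence, and ducts were isolated under a fluorescence microscope. The reporter gene is now named f11r.1, and zebrafish kidney also houses the adult blood-forming marrow, so a whole kidney pool mixes nephron, duct, blood and stroma. The time from irradiation to dissection, the exact age and the sex are not given in the sources used here.

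Values are log2 expression levels as deposited, 1 per probe set and array, and a difference of 1 is a doubling. Probe sets differ in how brightly they bind, so a difference in level between probe sets is not read as one between genes. Array medians lay between 5.82 and 5.88, and a level under them is not shown to be above background. The size of a difference from such a level is given as the files list it, and is uncertain. Group differences come from limma over all 15502 probe sets, with the moderated standard error (SE) and a Benjamini-Hochberg adjusted p that counts as past the threshold under 0.05. With 2 arrays a group, precision is low throughout. The 3 groups share 1 estimate of the spread. Where kidney arrays vary more than duct arrays, errors, intervals and adjusted p against kidney are smaller than the kidney's own spread would give.

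The tissue labels were set against markers first. Of all probe sets, 4.27% were higher and 2.99% lower in unirradiated ducts than in kidney. In irradiated ducts 6.21% were higher and 4.24% lower. Of 12 measured collecting duct and distal tubule markers, 6 were higher in unirradiated ducts than in kidney and 0 lower, with f11r.1, the reporter's own gene, at 1.19 ± 0.16 (log2 fold change ± SE, adjusted p = 0.0172). Of 6 proximal tubule markers, 3 were lower in ducts and 0 higher. Markers of smooth muscle and stroma moved with the ducts as well, with 6 of 8 higher, as did 4 of 12 skeletal muscle markers. Blood markers ran the other way: 4 of 8 erythroid markers were lower in unirradiated ducts than in kidney and 0 higher (3 of 8 lower in irradiated ducts), and 3 of 9 leukocyte markers were lower and 0 higher (7 of 9 lower in irradiated ducts). The mean log2 level of the smooth muscle and stroma list was 10.37 and 11.17 in irradiated ducts, 10.88 and 10.70 in unirradiated ducts, and 8.15 and 6.79 in whole kidney. The excess of the 3' over the 5' GAPDH control probe set, a sign of RNA quality, came to 1.13 and 0.97 in irradiated ducts, 1.16 and 2.52 in unirradiated ducts, and 0.55 and 0.91 in whole kidney. The mean of the hybridisation controls was 9.39 and 9.64 in irradiated ducts, 10.66 and 11.15 in unirradiated ducts, and 8.48 and 10.24 in whole kidney. The part of any of these in the keratin values was not tested.

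Set against their array's median, the keratins fell into those above it, called bright here, those under it, called dim, and a few that crossed it. On all 6 arrays, 8 probe sets of 7 genes lay above it, namely krt4, krt8, krt18a.1, krt18b, krt15, krt91 and krt94. On all 6 arrays, 7 probe sets of 5 genes lay under it, namely krt1-19d, krt1-19e, krt93, krt95 and krt99, with values from 3.05 to 5.81. The remaining 3, krt5, krt17 and krt97, crossed the median between arrays. For the dim genes a difference between arrays may lie within background.

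**Figure D1:**
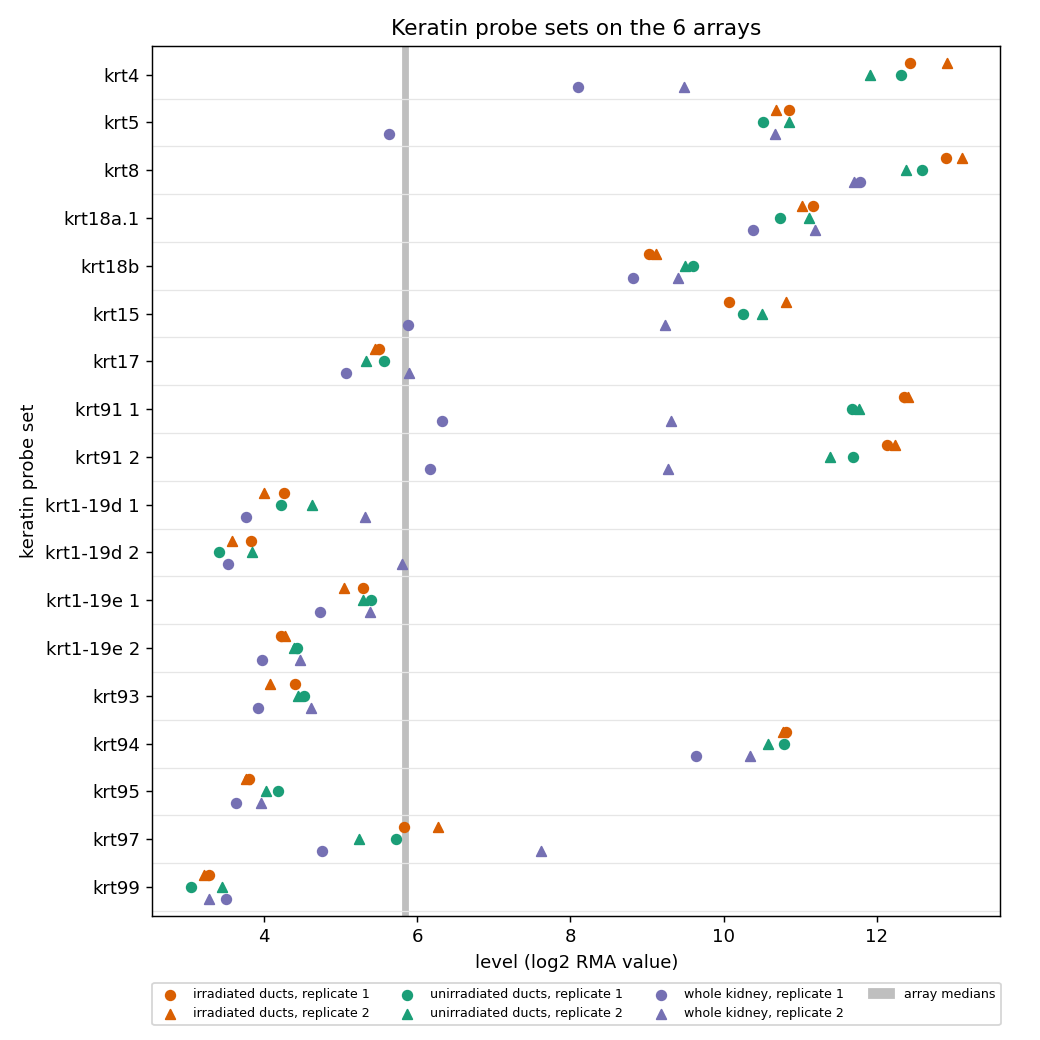
Log2 RMA level (horizontal axis) of each keratin probe set (rows) on the 6 arrays, with irradiated ducts in orange, unirradiated ducts in green and whole kidney in purple, circles for replicate 1 and triangles for replicate 2. The grey band spans the array medians, 5.82 to 5.88, and the 2 kidney arrays of krt5 stand at 5.64 and 10.67 while its 4 duct arrays lie close together.

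The keratin with the clearest difference between ducts and kidney was krt4. It read 12.43 and 12.92 in irradiated ducts, 12.31 and 11.91 in unirradiated ducts, and 8.10 and 9.48 in whole kidney. All 4 duct arrays lay above both kidney arrays. The gene exceeded its kidney level in unirradiated ducts by 3.32 ± 0.47 on the log2 scale (adjusted p = 0.0195, 95% interval 2.17 to 4.47). In irradiated ducts it was 14.8-fold higher than in whole kidney (log2 fold change 3.89 ± 0.47, adjusted p = 0.00857). Both comparisons share the kidney arrays. The SD of krt4 was 0.35 in irradiated ducts, 0.28 in unirradiated ducts and 0.97 in whole kidney, so the shared error understates the kidney spread. Leaving out unirradiated duct replicate 1 or 2 gave a log2 fold change of 3.13 or 3.52 for unirradiated ducts. Neither passed, but each fit left that group with 1 array and lost every call over all probe sets. Centring arrays on their hybridisation controls gave 1.77 in unirradiated ducts (adjusted p = 0.0941), with the median of all probe sets moved to -1.54. The call in irradiated ducts was lost without either irradiated duct array, where calls over all probe sets fell too. The log2 fold change of irradiated ducts was 3.20 without kidney replicate 1 and 4.57 without kidney replicate 2, and that of unirradiated ducts 2.63 and 4.01. These fits leave whole kidney with 1 array and take its spread from the duct arrays. In such bulk samples, more cells of a type and more RNA per cell cannot be told apart.

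The type II keratin krt8, a partner of keratin 18 in simple epithelia, was bright on every array. It read 12.90 and 13.11 in irradiated ducts, 12.59 and 12.38 in unirradiated ducts, and 11.78 and 11.70 in whole kidney. The 3 groups did not overlap, and the kidney pools were nearly equal. The difference of irradiated ducts from whole kidney was 1.26 ± 0.17 (2.40-fold, adjusted p = 0.0116). That of unirradiated ducts was 0.74 ± 0.17, and it did not pass (adjusted p = 0.0588, 95% interval 0.32 to 1.16). It did pass with limma's trend and robust options (adjusted p = 0.0386). With hybridisation-control centring it turned to -0.80, where the median of all probe sets was -1.54. The call in irradiated ducts was lost without either irradiated duct array. Those fits left that group with 1 array and had fewer calls over all probe sets as well. It was also lost with hybridisation-control centring (log2 fold change 1.11).

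The other type II gene, krt5, gave a different picture. It read 10.86 and 10.69 in irradiated ducts, 10.51 and 10.85 in unirradiated ducts, and 5.64 and 10.67 in whole kidney. The 4 duct arrays spanned only 0.35 on the log2 scale. The 2 kidney pools differed by 5.03 as listed (32.7-fold), with 1 of them under its array's median, so that the size is uncertain, and the other at the level of ducts. The fold change of unirradiated ducts over kidney, 2.53 ± 1.48, did not pass (adjusted p = 0.332), nor did that of irradiated ducts (2.63 ± 1.48, adjusted p = 0.334). By size of the listed difference between kidney pools krt5 ranked 9 of 15502 probe sets. The log2 fold change of unirradiated ducts was 0.01 without kidney replicate 1 and 5.04 without kidney replicate 2, each fit keeping 1 kidney array.

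The type I partners of keratin 8 were krt18a.1 and krt18b. The gene krt18a.1 read 11.17 and 11.03 in irradiated ducts, 10.74 and 11.11 in unirradiated ducts, and 10.39 and 11.20 in whole kidney. Its groups overlapped in every comparison, and the interval for unirradiated ducts over kidney ran from -0.61 to 0.86. The second copy, krt18b, read 9.03 and 9.12 in irradiated ducts, 9.60 and 9.50 in unirradiated ducts, and 8.82 and 9.40 in whole kidney. Unirradiated ducts lay above the other groups, with a difference from kidney of 0.44 ± 0.22 that did not pass (adjusted p = 0.272). That difference turned to -1.11 with hybridisation-control centring, where the median of all probe sets was -1.54.

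Among the other bright keratins, krt91 had the largest fold change in both duct comparisons. Its first probe set read 12.36 and 12.41 in irradiated ducts, 11.68 and 11.77 in unirradiated ducts, and 6.32 and 9.32 in whole kidney. Its second read 12.13 and 12.24 in irradiated ducts, 11.69 and 11.39 in unirradiated ducts, and 6.17 and 9.27 in whole kidney. Ducts stood far above both kidney arrays in each, and the kidney arrays were 8.03-fold and 8.55-fold apart. The probe sets are read from the same gene and are not independent, and the first is of a type that the array's maker marks as possibly binding related transcripts.

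Irradiated ducts exceeded kidney for krt91 by 4.57 ± 0.89 and 4.46 ± 0.92 on the log2 scale (adjusted p = 0.0315 and 0.0367). Unirradiated ducts exceeded it by 3.91 ± 0.89 and 3.82 ± 0.92, which did not pass (adjusted p = 0.0578 and 0.0661). The SD of the first probe set was 0.03 in irradiated ducts, 0.06 in unirradiated ducts and 2.13 in whole kidney. The errors shared by the groups thus understate the kidney spread. The calls in irradiated ducts were lost when only the compared groups entered the fit (adjusted p = 0.0866 and 0.0966). Leaving out either unirradiated duct array is no further check, since the 1 left adds nothing to the spread and the result is the same. The calls were also lost without either irradiated duct array, where that group kept 1 array and calls over all probe sets fell too. The first probe set passed in unirradiated ducts with the trend and robust options (adjusted p = 0.047), array weights (0.0433), a filter on dim probe sets (0.0448) or hybridisation-control centring, which took its log2 fold change to 2.36 (0.0399) and the second probe set's to 2.27 (0.0475). Without kidney replicate 1 or 2 the log2 fold change of the first probe set in unirradiated ducts was 2.40 or 5.41. That of the second was 2.27 or 5.37. In irradiated ducts it was 3.06 or 6.07 for the first probe set and 2.91 or 6.01 for the second. These fits leave whole kidney with 1 array and take its spread from the duct arrays.

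The type I keratin krt15, in mammals a marker of basal and stem-like layers of skin, read 10.07 and 10.81 in irradiated ducts, 10.25 and 10.50 in unirradiated ducts, and 5.88 and 9.23 in whole kidney. All duct arrays lay above both kidney arrays, which were 10.2-fold apart. The difference did not pass in irradiated ducts (2.89 ± 1.02, adjusted p = 0.141) or in unirradiated ducts (2.82 ± 1.02, adjusted p = 0.149). The gene krt94 read 10.82 and 10.78 in irradiated ducts, 10.79 and 10.58 in unirradiated ducts, and 9.64 and 10.34 in whole kidney. Its groups did not overlap between ducts and kidney either. Its differences of 0.82 ± 0.26 and 0.69 ± 0.26 for irradiated and unirradiated ducts did not pass (adjusted p = 0.113 and 0.16). The second turned to -0.85 with hybridisation-control centring, where the median of all probe sets was -1.54.

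The gene krt97 ran the other way in 1 kidney pool. It read 5.83 and 6.27 in irradiated ducts, 5.72 and 5.24 in unirradiated ducts, and 4.76 and 7.62 in whole kidney. The kidney arrays thus bracketed all duct arrays, and neither duct comparison passed (adjusted p = 0.949 in irradiated and 0.642 in unirradiated ducts). With hybridisation-control centring krt97 was lower in unirradiated ducts (-2.26, adjusted p = 0.0486). That setting moved the median of all probe sets to -1.54, so the call carries a shift shared by all probe sets. Of the remaining probe sets, krt17 lay between 5.07 and 5.90 on all arrays. The second krt1-19d probe set had its highest value, 5.81, in kidney replicate 2 and lay between 3.41 and 3.84 on the other 5 arrays. Over the 6 arrays the dim gene krt93 ran from 3.92 to 4.61, krt95 from 3.64 to 4.19 and krt99 from 3.05 to 3.51. The probe sets of krt1-19e ran from 4.74 to 5.40 and from 3.98 to 4.47, and the first of krt1-19d from 3.77 to 5.32. Fold changes of ducts over kidney for krt17, krt1-19d, krt1-19e, krt93, krt95 and krt99 did not pass in either comparison. With hybridisation-control centring, and so with the same shift, the second krt1-19d probe set was lower in unirradiated ducts (-2.59, adjusted p = 0.0256).

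**Figure D2:**
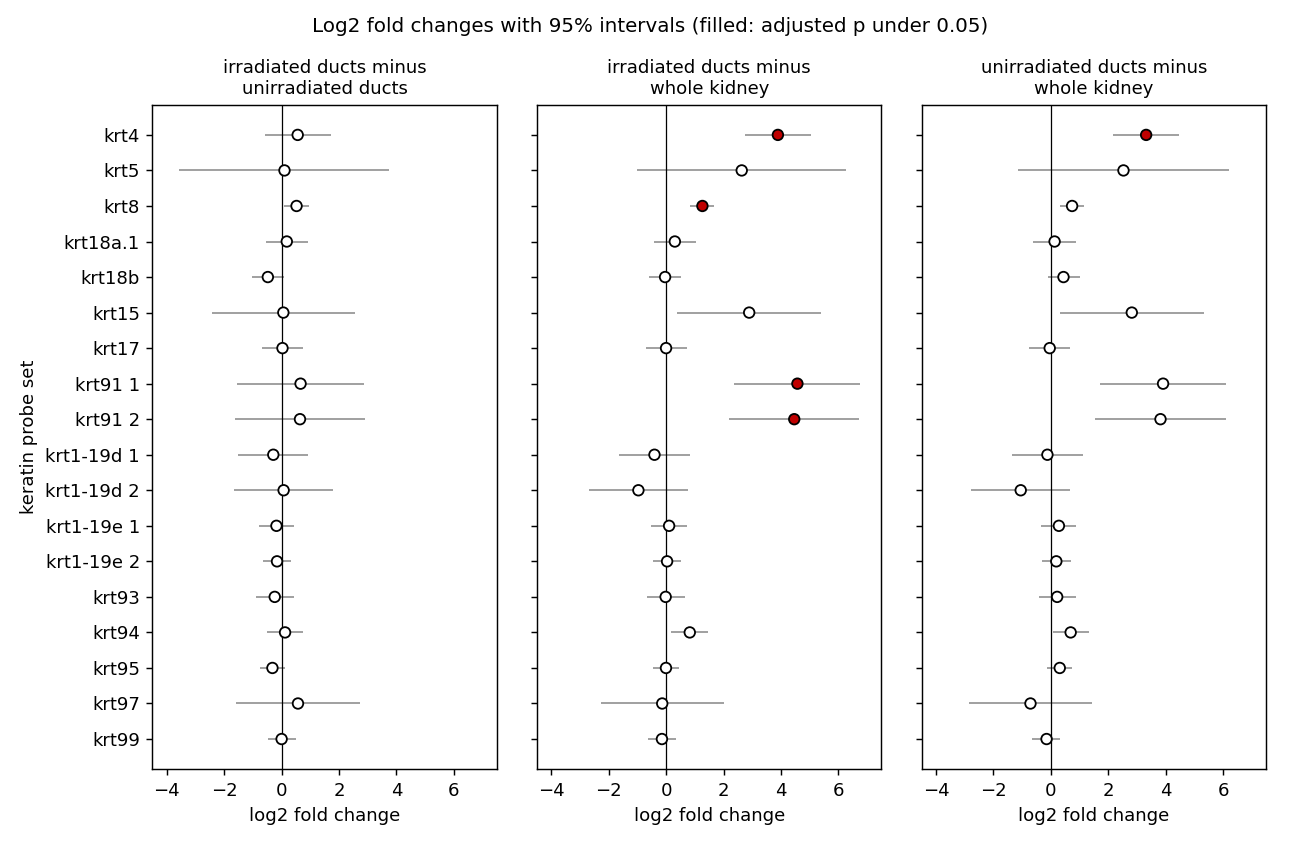
Log2 fold change of each keratin probe set (rows) for irradiated against unirradiated ducts, irradiated ducts against whole kidney and unirradiated ducts against whole kidney, with lines for the 95% intervals and filled points for an adjusted p under 0.05. Filled points are krt4 in both kidney comparisons, and krt8 and both krt91 probe sets in irradiated ducts against kidney, while none is filled for irradiation.

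In counts, 1 of 18 keratin probe sets was higher in unirradiated ducts than in kidney and 0 lower, against 7.26% of all probe sets called, 4.27% higher and 2.99% lower. That share of 5.56% lies near the background. At an unadjusted p under 0.05 there were 6 of 18, against 26.9% of all. In irradiated ducts 4 of 18 were higher and 0 lower, or 22.2%, against 10.5% of all probe sets called, 6.21% higher and 4.24% lower. At an unadjusted p under 0.05 that count was 6, against 26.4% of all. Fits without 1 array leave its group with 1 array, so their counts are not read as results about keratins. The median log2 fold change of the keratin probe sets was 0.06 in irradiated and 0.29 in unirradiated ducts over kidney, against -0.05 and 0.01 over all probe sets. Unirradiated duct arrays lay above both kidney arrays without overlap for 8 of 18, or 44.4%, where 28.9% of all probe sets did so, and for 0 of 18 below, where 27.7% did. For irradiated ducts 7 of 18 lay above, against 23.4%, and 1, krt99, below, against 31.9%. The 7 include krt5, which read 10.69 in irradiated duct replicate 2 beside 10.67 in kidney replicate 2. For krt99 the nearest arrays read 3.28 and 3.29. Both krt99 and krt95, which is among the 8, lay under the array medians on every array. All 4 duct arrays were above both kidney arrays for 6 of 18 keratin probe sets, those of krt4, krt8, krt15, krt91 and krt94, and the background was 15.9%. None lay below, where the background was 19.4%.

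Irradiation of the ducts changed no keratin past the threshold. By limma 0 of 18 probe sets were called (1 at an unadjusted p under 0.05), against 0.168% of all probe sets called (0.0774% higher and 0.0903% lower) and 14.3% at an unadjusted p under 0.05. The smallest adjusted p, 0.295, belonged to krt8, whose difference of irradiated from unirradiated ducts was 0.52 ± 0.17 (1.43-fold, 95% interval 0.10 to 0.94). Both irradiated arrays lay above both unirradiated arrays for 5 probe sets, those of krt4, krt8, krt91 and krt97, and below for 5, those of krt18b, krt1-19e, krt93 and krt95. These shares stand beside 23.8% above and 33.0% below among all probe sets.

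By gene, irradiated minus unirradiated ducts was 0.56 ± 0.47 for krt4, 0.10 ± 1.48 for krt5, -0.48 ± 0.22 for krt18b and 0.66 ± 0.89 for the first krt91 probe set. All these errors draw on the kidney arrays too. With ducts alone in the fit they were 0.23 for krt4, 0.18 for krt5, 0.14 for krt18b and 0.14 for the first krt91 probe set. The adjusted p was then 0.228 for krt4, 0.77 for krt5, 0.139 for krt18b and 0.0852 for krt91. That of krt91 was the lowest of any keratin under any setting run. With all arrays in the fit the 95% interval for krt5 ran from -3.56 to 3.75. Hybridisation-control centring, which moved the median of all probe sets to 1.34, gave 1.95 for krt4, 1.49 for krt5, 1.91 for krt8, 2.05 for the first krt91 probe set and 0.91 for krt18b, all without a call. Leukocyte markers moved in the same comparison, with 4 of 9 lower and 0 higher in irradiated ducts, beside 0.0903% and 0.0774% of all probe sets. Their part in the keratin values was not tested.

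The kidney pools themselves differed in keratins. Kidney replicate 2 read at least 1 higher than replicate 1 on the log2 scale for 8 of 18 keratin probe sets, or 44.4%, and at least 1 lower for 0. Among all probe sets 5.15% were at least 1 higher and 4.79% at least 1 lower. The 6 genes were krt5 (5.03), krt15 (3.35), krt91 (3.01 and 3.10), krt97 (2.86), krt1-19d (2.28 and 1.55) and krt4 (1.37). Both krt1-19d probe sets were under the array medians in both pools, and krt5 and krt97 in replicate 1, so the sizes for these 3 genes are uncertain. The median difference was 0.81 over the keratin probe sets and 0.01 over all. By contrast krt8 differed by only -0.09 and krt99 by -0.23. The mean of the hybridisation controls also differed between the kidney arrays, at 8.48 in replicate 1 and 10.24 in replicate 2. Its part in the keratin differences was not tested. Between duct replicates no keratin differed by 1 or more, the largest sizes being 0.74 in irradiated and 0.48 in unirradiated ducts, where 2.06% and 1.74% of all probe sets did.

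**Figure D3:**
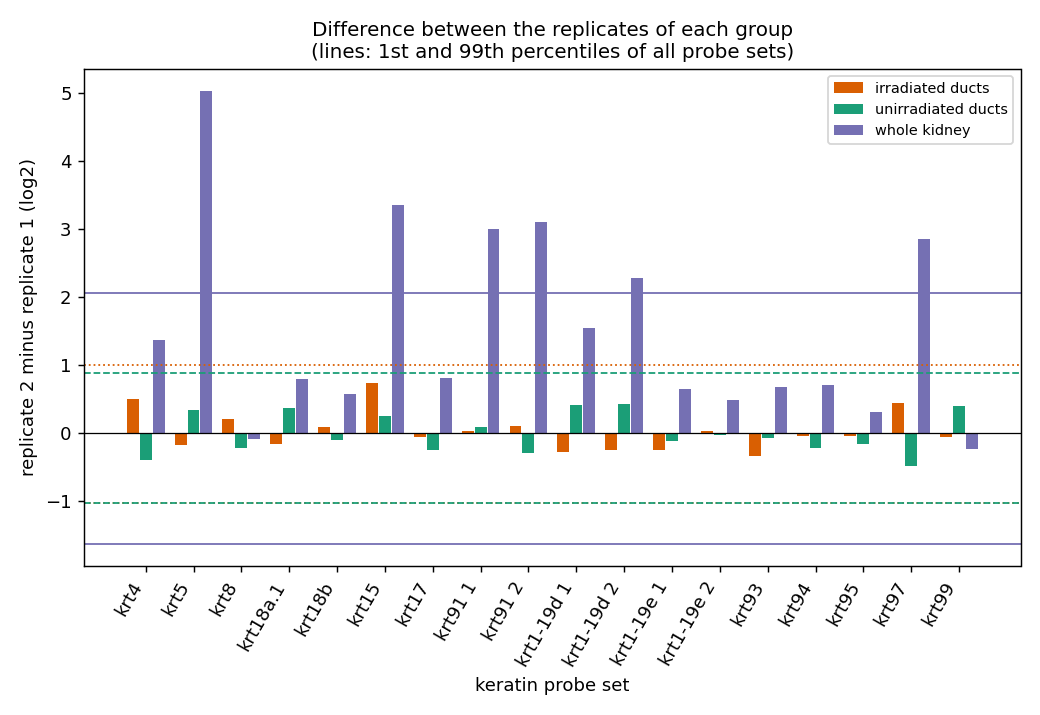
Replicate 2 minus replicate 1 in log2 units (vertical axis) for each keratin probe set, with bars for irradiated ducts, unirradiated ducts and whole kidney, and horizontal lines at the 1st and 99th percentiles of all probe sets in each group. The kidney bars of krt5, krt15, krt91, krt97 and the second krt1-19d probe set rise above the kidney 99th percentile of 2.06, and no duct bar passes a duct line.

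The kidney pool that stood apart from the other 5 arrays differed between keratins. Kidney replicate 1 lay at least 1 below each of the other 5 arrays for 5 keratin probe sets, those of krt4, krt5, krt15 and krt91, against 1.53% of all probe sets. Kidney replicate 2 lay at least 1 above each of the other 5 for krt97 and for 1 probe set of krt1-19d, against 1.40%, and at least 1 below them for 0, against 0.716%. This measure cannot count replicate 2 where replicate 1 was lower still. Replicate 2 also lay below all duct arrays for krt4 (9.48), krt15 (9.23) and krt91 (9.32 and 9.27). For the marker counts that follow, 5.15% of all probe sets were at least 1 higher in replicate 2 and 4.79% at least 1 lower. Of 12 collecting duct and distal tubule markers, 3 were at least 1 higher in replicate 2 and 0 at least 1 lower, with a median of 0.26. Those 3 were emx1 (3.57), pax2a (1.33) and hnf1bb (1.17), while f11r.1 differed by -0.16. In replicate 1 emx1 lay under the array median, so its size is uncertain. In the epidermis and periderm list, keratins left out, 4 of 20 genes were at least 1 higher in replicate 2 and 1 was lower, with a median of 0.45. The higher genes were icn2 (3.07), cldni (2.39), anxa1c (1.58) and anxa1b (1.37), and the lower one was agr2 (-1.07). All 4 higher genes lay under the array median in replicate 1, and anxa1b in replicate 2 as well, so their sizes are uncertain. The probe set of icn2 is also of the type marked as possibly binding related transcripts. The mean log2 level of this list was 6.18 and 6.74 in kidney replicates 1 and 2. Its basal epidermal regulator tp63 lay under the array medians on every array (5.05 to 5.61). Smooth muscle and stroma genes ran the other way, with 5 of 8 at least 1 lower in replicate 2 and a median of -1.43. The part of any of these tissues in the keratin differences was not tested.

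Leaving out 1 kidney pool changed the log2 fold changes of several keratins. With kidney replicate 2 left out, that of unirradiated ducts over kidney was 5.04 for krt5 and 4.50 for krt15. With replicate 1 left out, it was 0.01 for krt5 and 1.15 for krt15. For krt97 it was 0.72 without replicate 2 and -2.14 without replicate 1. For the second krt1-19d probe set it was 0.09 without replicate 2 and -2.19 without replicate 1. In irradiated ducts against kidney krt97 changed sign between these fits (1.29 without replicate 2, -1.57 without replicate 1). Each fit leaves whole kidney with 1 array and assumes that it varies like the duct arrays, so its calls are not read as results about keratins. Both krt91 probe sets, krt4, krt8, krt15, krt94, krt18b and the dim krt95 kept a positive log2 fold change in unirradiated ducts under either omission. That of krt8 was 0.79 without replicate 1 and 0.70 without replicate 2. Apart from krt5, at 0.01 without replicate 1, the other probe sets were negative under 1 or both omissions.

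Neighbouring keratin genes could have unlike values. In the gene table krt5, krt8 and krt18a.1 are direct neighbours, with no other protein-coding gene between them. Of these krt8 alone was called in a duct comparison, at 1.26 ± 0.17 in irradiated ducts against kidney. The gene krt5 had a larger log2 fold change there, 2.63 ± 1.48, with its kidney pools 5.03 apart, so a missing call is not a smaller change. A second run holds krt93, krt94, krt15 and krt99, in which all duct arrays lay above both kidney arrays for krt94 and krt15 and not for krt93 or krt99. Another holds krt1-19d, krt1-19e, krt17 and krt91, and there the same held for krt91 and not for the rest. In these 2 runs krt93, krt99, krt1-19d and krt1-19e lay under the array medians on every array, so their values may lie within background. The genes krt4 and krt18b sit together with 1 other gene between them, and they differed in pattern as described above.

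Likeness of pattern was measured as the root mean square difference over the 6 arrays between levels centred on each gene's own mean, in log2 units. Among keratins, the pattern nearest to krt4 was that of krt91 (0.59), that nearest to krt5 was krt15 (0.569), and that nearest to krt8 was krt94 (0.313). Among all other genes the nearest to krt4 were the transcription factor gene sox9b (0.208), si:ch211-121a2.2 (0.248), the fatty acid elongase gene elovl7a (0.258), atp1a1a.3 of the sodium pump (0.31) and the tight junction gene cldne (0.32). The gene sox9b read 8.81 and 9.00 in irradiated ducts, 8.26 and 8.05 in unirradiated ducts, and 4.56 and 5.38 in whole kidney, where it lay under the array medians.

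Nearest to krt5 were si:ch211-250g4.3 (0.551), gpatch8 (0.565), the chromatin remodeller gene atrx (0.581), the homeobox gene emx1 (0.615) and the G protein gene gna11b (0.641). Choosing by distance over the same arrays favours genes with the kidney split of krt5, so sharing that split is not a separate result. The gene emx1 read 9.84 and 9.84 in irradiated ducts, 10.67 and 9.65 in unirradiated ducts, and 5.39 and 8.96 in whole kidney. In kidney replicate 1, emx1, si:ch211-250g4.3, atrx and gna11b lay under the array median. Nearest to krt8 were reep3b (0.0782), mprip (0.113), the polarity scaffold gene dlg1a (0.117), golim4a (0.121) and twsg1a (0.125). The gene reep3b read 9.87 and 9.89 in irradiated ducts, 9.39 and 9.30 in unirradiated ducts, and 8.59 and 8.64 in whole kidney. A small range makes a small distance easier to reach, so distances for krt8 and krt5 are not on a par.

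Keratin filaments end at desmosomes and hemidesmosomes, where plakins and armadillo proteins bind them. Of 15 such genes measured, 4 were higher in unirradiated ducts than in kidney, 0 lower and 11 not past the threshold. Among all probe sets 4.27% were higher and 2.99% lower. The 4 higher genes were evplb (envoplakin, 4.17 ± 0.32, adjusted p = 0.00564), ppl (periplakin, 4.01 ± 0.33, adjusted p = 0.00591), pleca (plectin, 1.97 ± 0.29, adjusted p = 0.0215) and the desmosomal cadherin gene dsc2l (1.21 ± 0.21, adjusted p = 0.0326). Levels of evplb and ppl in kidney lay under the array medians. The median log2 fold change of the list was 1.03, against 0.01 for all probe sets. Desmoplakin a (dspa), which anchors keratins at desmosomes, read 0.40 ± 0.26 (adjusted p = 0.37). In irradiated ducts over kidney 6 of 15 were higher and 0 lower, beside 6.21% and 4.24% of all probe sets. After irradiation 0 of 15 passed, where 0.168% of all probe sets did.

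Of 12 other intermediate filament genes measured, 1 was higher in unirradiated ducts and 0 lower, beside 4.27% and 2.99% of all probe sets, and the median was 0.22. The higher one was desmb, a desmin gene of muscle cells, which read 8.56 and 9.72 in irradiated ducts, 9.55 and 9.29 in unirradiated ducts, and 4.88 and 4.83 in whole kidney (4.56 ± 0.38, adjusted p = 0.00591), where it lay under the array medians. The mesenchymal filament gene vim read 0.63 ± 0.20 (adjusted p = 0.117) and the lamin gene lmnb1 -0.80 ± 0.29 (adjusted p = 0.152). In irradiated ducts over kidney 1 of the 12, again desmb, was higher and 0 lower, beside 6.21% and 4.24% of all probe sets. Among 9 measured partners of keratin folding and turnover, 0 passed in unirradiated ducts over kidney (median -0.02), against 7.26% of all probe sets. The small heat shock gene hspb1 was nearest to the threshold at 0.88 ± 0.19 (adjusted p = 0.0527).

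Among 12 epithelial transcription and splicing factor genes, 7 were higher in unirradiated ducts than in kidney and 0 lower, with a median of 1.47. Among all probe sets 4.27% were higher and 2.99% lower. Those with the largest listed change were the forkhead gene foxa1 (4.43 ± 0.25, adjusted p = 0.00374), gata3 (2.96 ± 0.26, adjusted p = 0.00643), elf3 (2.32 ± 0.27, adjusted p = 0.0126) and ehf (2.04 ± 0.41, adjusted p = 0.0429). Kidney levels lay under the array medians for foxa1 in both pools and for ehf in replicate 2. The genes elf3 and ehf encode ETS-family factors of epithelia. In irradiated ducts over kidney 7 of 12 were higher and 0 lower, beside 6.21% and 4.24% of all probe sets. After irradiation 0 of 12 passed, where 0.168% of all probe sets did. The epidermis and periderm markers had 7 of 20 higher in unirradiated ducts and 0 lower, beside the same shares of all probe sets. They were led by scel (4.63 ± 0.31), evplb, anxa1c (4.15 ± 0.57) and ppl. In irradiated ducts over kidney 11 of 20 were higher and 1 lower, beside 6.21% and 4.24% of all probe sets. The genes evplb, evpla, ppl and tp63 also stand in the lists above. In kidney, scel in both pools and anxa1c in replicate 1 lay under the array medians. The claudin cldni of this list stayed between 3.22 and 3.92 on all arrays but kidney replicate 2, where it read 6.29.

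**Figure D4:**
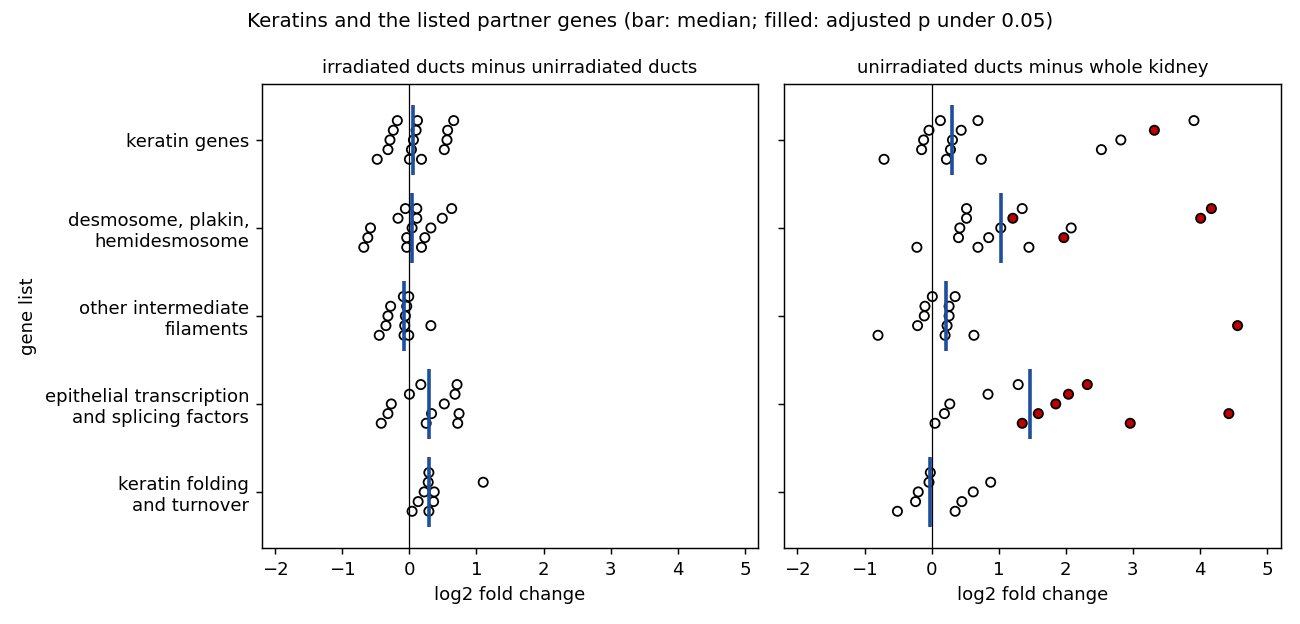
Log2 fold change (horizontal axis) of each keratin gene, taking the probe set whose mean level was highest, and of each measured gene of 4 partner lists (rows), for irradiated against unirradiated ducts and for unirradiated ducts against whole kidney; bars mark medians and filled points an adjusted p under 0.05. No gene is filled for irradiation, while 1 keratin, 4 desmosome and plakin genes, 1 other filament gene and 7 transcription or splicing factor genes are filled for ducts against kidney.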

How the data were processed

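The deposited values were log2 expression levels that the authors made with RMA in the affy package, per the submitters' processing notes, which give no versions. RMA corrects background, equalises the distributions of the arrays and summarises each probe set, so a shift shared by all transcripts is removed. Controls of the array (115 of 15617 deposited probe sets) were not tested. Gene symbols followed the platform annotation, brought up to date by gene ID through a current gene table, used for names and neighbours alone. One probe set naming more than 1 keratin gene was not used.

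Groups were taken from titles and the design text. limma (version 3.58.1) in R (version 4.3.3) fitted all 6 arrays with 1 mean per group and 3 residual degrees of freedom. The fit was also run on simulated data in which each probe set had the same spread in all groups. That run cannot test unequal spread. In the measured values the root mean square SD was 0.25 in irradiated ducts, 0.246 in unirradiated ducts and 0.465 in whole kidney. No exact permutation p is given, since 0.333 is the smallest such a test allows here.

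The keratins and lists were chosen with earlier results of these data known. Every keratin probe set is described, and up to 4 genes are named per partner list by call and size of change in unirradiated ducts over kidney. The genes dspa, cldni and tp63 were named after their values were seen. So were the 3 duct markers and the epidermis and periderm markers that differed between kidney pools. The nearest 5 genes per krt4, krt5 and krt8 were taken by distance. Also run were a block for replicate number, the compared groups alone, limma's trend with robust estimation, weights for arrays, a filter on mean level at the median, centring on hybridisation controls or array medians, and leaving out each array.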

Additional observations from a re-analysis of the deposited data

How the results depend on the processing

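Of 18 keratin probe sets, 1 was called in unirradiated ducts against kidney with the settings as reported, 2 with array weights or the filter on dim probe sets, 3 with trend and robust, 4 with arrays centred on hybridisation controls (2 higher and 2 lower), and 0 to 7 when 1 array was left out. In irradiated ducts against kidney 4 were called, 2 with the compared groups alone and 0 to 8 with 1 array left out. For irradiation 0 were called under every alternative run. The log2 fold change of krt97 in irradiated ducts against kidney reversed to 1.29 without kidney replicate 2 and was -1.57 without replicate 1, with 1 kidney array in each fit.

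Over all probe sets the counts were 1126 in unirradiated ducts against kidney (615 with array weights, 422 with the compared groups alone, 1935 centred on hybridisation controls, 0 to 3373 with 1 array left out), 26 for irradiation (243 with array weights, 217 with the compared groups alone, 147 centred on hybridisation controls, 16 with the filter, 0 to 217 with 1 array left out) and 1620 in irradiated ducts against kidney (783 with the compared groups alone, 202 centred on hybridisation controls, 308 to 3183 with 1 array left out). Counts of 0 by limma stood beside at least 923 probe sets at an unadjusted p under 0.05. Centring on hybridisation controls moved the median of all probe sets to -1.54, 1.34 and -0.21 in these 3 comparisons, left 35 higher and 1900 lower in the first, 147 higher and 0 lower in the second, and changed the sign of 8 keratin probe sets in the first (krt8 to -0.80, krt18a.1 to -1.42, krt18b to -1.11, krt94 to -0.85, and krt93, krt95 and both krt1-19e to between -1.36 and -1.24) and of 6 in the second (krt18b to 0.91, and krt93, krt95, both krt1-19e and the first krt1-19d to between 1.07 and 1.23), without a call among them.

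The replicate block left 1, 0 and 4 keratin calls in these comparisons and 812, 0 and 1393 calls over all probe sets (1906 at an unadjusted p under 0.05 for irradiation). Replicate differences of the groups correlated at -0.0976, 0.0633 and -0.0972, and the labels give no shared origin. Keratins under the array medians and the 2 kidney pools set the limits of these data, and the cause of the changes between settings was not tested.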
